A study of Mus musculus with 11 samples.

Results

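The 39 Hox genes of the mouse were described in skin and small intestine of mice treated on the skin with imiquimod (IMQ) cream or vehicle. Members were chosen by symbol alone, as every gene of the deposited table named Hox followed by a cluster letter a to d and a number, which gave 39 of 45777 genes, with 11 in the HoxA cluster, 10 in HoxB, 9 in HoxC and 9 in HoxD. The study sequenced RNA to compare skin and gut in a model of psoriatic dermatitis. The 11 libraries were 3 of control skin (replicates 1 to 3), 3 of IMQ-treated skin (4 to 6), 3 of control small intestine (7 to 9) and 2 of small intestine from IMQ-treated mice (10 and 11). All mice were BALB/c of either sex, bought from a breeder and 8 to 10 weeks old at treatment. They were shaved and received each day 62.5 mg of a cream with 5% IMQ, an agonist of Toll-like receptor 7, or Vaseline as vehicle, on the back and the right ear for 5 to 8 days. The sources used here do not give the skin site or the segment of small intestine that was sampled, nor which libraries came from one mouse, so the p-values measure the spread between these libraries.

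Hox genes encode transcription factors that bind DNA through a homeodomain, and they lie in 4 clusters on different chromosomes. Within a cluster, genes are numbered by paralogue group from the 3′ end (group 1) to the 5′ end (group 13), and embryos use low numbers toward the head and high numbers toward the tail. Adult fibroblasts, smooth muscle and other cells of mesenchymal origin keep part of this pattern, so that the set of Hox genes in a tissue reflects where along the body it arose.

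The libraries held 44995414 to 58526384 counts. Skin epithelial markers, such as *Krt5* and *Trp63*, summed to at least 4721 FPKM (the authors' level of a gene, scaled by its length and by the depth of the library) in every skin library and to at most 1.39 FPKM in every intestinal library, as the labels say. Control skin replicate 2 stood apart in 2 ways. Intestinal epithelial genes (5 of them) reached a median of 1.46% of their control intestinal level there, against at most 0.0550% in the other skin libraries, and the 7 hair follicle markers summed to 28.8 FPKM, against 463 and 785 FPKM in control replicates 1 and 3 and 14.8 to 19.6 FPKM in IMQ-treated skin. Counts of Hox genes called against control skin are therefore also given without this library.

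Skin carried most of the Hox genes and reached far into the high paralogue numbers. Of the 39 members, 29 had reads in all 6 skin libraries, 27 had a mean of at least 1 FPKM, 6 had reads in some libraries (*Hoxa11*, *Hoxb1*, *Hoxc11*, *Hoxc12*, *Hoxd1* and *Hoxd11*), and *Hoxa13*, *Hoxb13*, *Hoxd12* and *Hoxd13* had none. Summed over the members, the level was 158, 117 and 187 FPKM in control skin and 97.8, 87.3 and 104 FPKM in IMQ-treated skin. The low and the high ends of the clusters were thus near 0, with the exception of *Hoxc13*, and the middle groups were high. Groups 5 to 8 made up 55.0% to 60.9% of the summed Hox level in control skin, and groups 9 to 13 made up 17.1% to 24.9%.

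**Figure D1:**
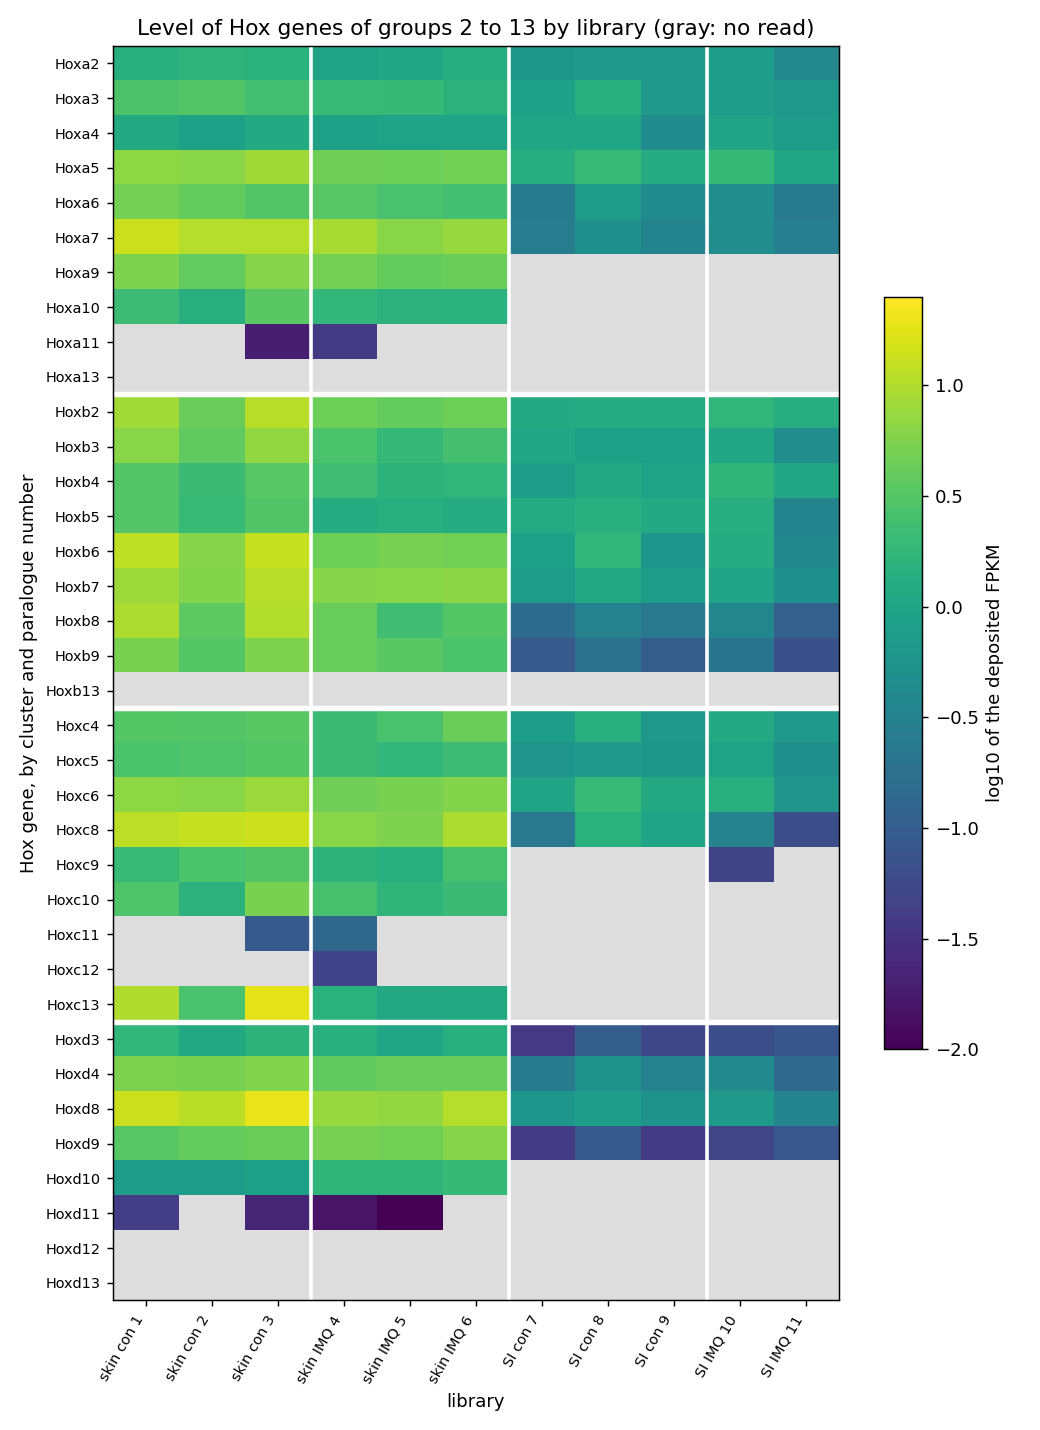
Level of each Hox gene (rows, by cluster and paralogue number) in each library (columns) as the log10 of the deposited FPKM, with gray for no read. Shown are the 36 genes of groups 2 to 13. All 6 skin libraries have reads from 28 of them, up to Hoxc13, and all 5 small intestine (SI) libraries have reads from 22, none above paralogue group 9.

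The 5 members with the highest mean level in skin were of groups 6 to 8, from all 4 clusters. *Hoxd8* had 13.4, 11.2 and 19.7 FPKM in control skin and 7.50, 7.07 and 10.3 FPKM in IMQ-treated skin. *Hoxc8*, which patterns the lower thorax in the embryo, had 11.5, 12.5 and 13.8 FPKM and then 6.25, 5.59 and 9.72 FPKM. *Hoxa7* had 13.6, 10.4 and 10.5 FPKM in control skin and 9.04, 6.17 and 7.56 FPKM with IMQ. These 3 genes were lower in every IMQ library than in every control library. *Hoxb6* had 11.7, 6.07 and 12.5 FPKM in control skin and 4.4, 5.01 and 4.71 FPKM with IMQ. *Hoxb7* had 8.09, 5.93 and 10.8 FPKM, and then 6.11, 6.28 and 6.37 FPKM. Control replicate 2 was the lowest control for *Hoxb6* and *Hoxb7*, and for *Hoxb7* it fell just under the IMQ libraries on the FPKM scale. The control ranges of neighbors in this order overlapped.

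The most 5′ members expressed in skin were of groups 9, 10 and 13. *Hoxa9* had 5.50, 3.85 and 6.04 FPKM in control skin and 4.94, 3.89 and 4.38 FPKM with IMQ. *Hoxb9* had 5.25, 3.21 and 5.53 FPKM and then 4.04, 3.41 and 2.73 FPKM. *Hoxc9* had 1.94, 2.75 and 2.96 FPKM and then 1.59, 1.36 and 2.60 FPKM. The groups overlapped for these 3 genes. *Hoxd9*, in contrast, was higher in every IMQ library (4.97, 4.78 and 6.13 FPKM) than in every control library (3.33, 3.91 and 4.35 FPKM). *Hoxa10* had 2.13, 1.36 and 3.37 FPKM in control skin and 1.78, 1.55 and 1.51 FPKM with IMQ, and *Hoxc10* had 2.91, 1.54 and 5.15 FPKM and then 2.57, 1.68 and 2.1 FPKM. Both group 10 genes overlapped between the conditions, with control replicate 2 the lowest control. Past group 10 no member exceeded 0.139 FPKM in any library apart from *Hoxc13*, a gene of hair and nail, which lies at the 5′ end of HoxC beyond *Hoxc11* and *Hoxc12*, each with at most 7 reads in a library.

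The small intestine carried fewer members at lower levels, with a larger share from groups 1 to 4 than in skin and little above group 8. Reads were present for 23 members in all 5 libraries and for 1 more, *Hoxc9*, only in IMQ replicate 10 (6 counts), whereas 15 had none, among them *Hoxa9* and every member of groups 10 to 13. A count of 0 allows up to 3 counts in a library. The summed level was 14.2, 21.5 and 14.2 FPKM in control libraries and 19.2 and 10.2 FPKM with IMQ. Groups 5 to 8 made up 51.1%, 59.2% and 57.7% of it in the controls, a share near that in control skin. Groups 1 to 4 made up 39.6% to 48.0%, against 21.6%, 22% and 20.1% in control skin, and groups 9 to 13 made up 0.896% to 1.3%. The mean paralogue number, weighted by level, was 4.63, 5.07 and 4.92 in control intestine and 4.73 and 4.46 with IMQ, against 6.75, 6.53 and 7.09 in control skin and 6.64, 6.52 and 6.61 in IMQ-treated skin. The 2 tissues did not overlap in this measure. Without *Hoxc13* the skin values were 6.33 to 6.46 in controls and 6.44 to 6.54 with IMQ, still above all intestinal libraries.

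**Figure D2:**
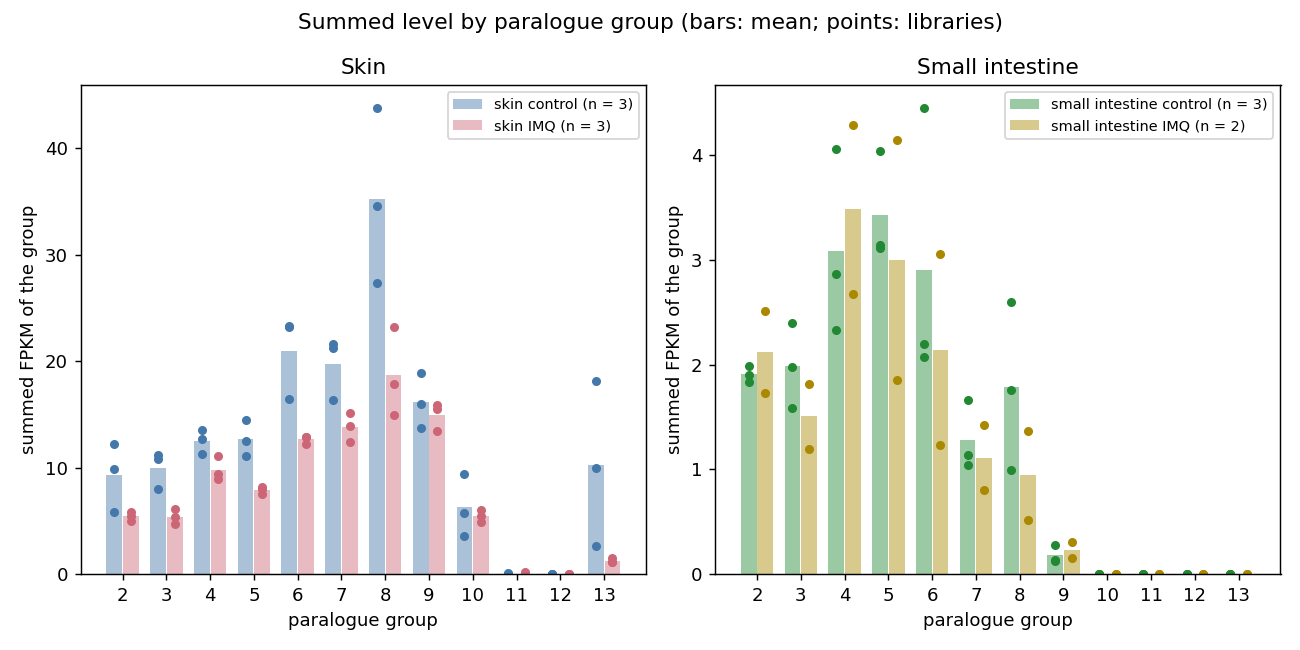
Summed FPKM of the Hox genes of each paralogue group (horizontal axis, 2 to 13) in skin and small intestine, with bars for the mean of a condition and points for libraries; the vertical scales differ. In skin the sum was highest at group 8, with a control mean of 35.2 FPKM, and in the intestine at groups 4 to 6, with control means of 2.91 to 3.43 FPKM.

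Only 5 members had a mean of at least 1 FPKM in the intestine. *Hoxa5*, which in the gut is known from the mesenchyme, had 1.3, 1.98 and 1.28 FPKM in control libraries and 1.90 and 1.01 FPKM with IMQ. *Hoxb2* had 1.20, 1.29 and 1.25 FPKM and then 1.74 and 1.32 FPKM. *Hoxc6* had 0.976, 1.95 and 1.15 FPKM and then 1.34 and 0.597 FPKM. For *Hoxa5* and *Hoxc6* control replicate 8 was the highest and IMQ replicate 11 the lowest library. *Hoxb4* had 0.795, 1.18 and 0.930 FPKM in control libraries and 1.70 and 1.10 FPKM with IMQ, and *Hoxb5* had 1.25, 1.39 and 1.20 FPKM and then 1.33 and 0.347 FPKM. *Hoxb5* was even among 4 libraries and low in IMQ replicate 11 alone. The most 5′ members with reads in every library were *Hoxb9* (0.0680 to 0.202 FPKM) and *Hoxd9* (0.0383 to 0.0880 FPKM). Bulk libraries cannot tell fewer cells of a type from less RNA in each cell, and here Hox reads may come from a small part of the cells: fibroblast markers summed to 2249 to 4528 FPKM in control skin and to 177 to 196 FPKM in control intestine, and the part of this in the tissue difference was not tested.

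Between the control tissues, 28 of 29 tested members were higher in skin and none was lower, whereas 29.2% of all genes tested were called higher in skin. The median log2 fold change of the members was 2.84, against 0.03 over all genes. Without control skin replicate 2, 27 members were higher in skin and *Hoxa2* was no longer called. Of the 29, 6 (*Hoxa9*, *Hoxa10*, *Hoxc9*, *Hoxc10*, *Hoxc13* and *Hoxd10*) had no read in control intestine and entered the test through skin alone. Of the 23 members with reads in every control library, 21 were called when the test was limited to such genes, the others being *Hoxa4* and *Hoxb5*. *Hoxa4* had 1.17, 0.891 and 1.21 FPKM in control skin and 1.01, 0.996 and 0.447 FPKM in control intestine. These values overlapped, and the log2 fold change of the counts was -0.04 with an SE of 0.34 (adjusted p = 0.921, edgeR quasi-likelihood F test, Benjamini-Hochberg).

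Among members with reads in the intestine, the difference between the tissues was larger toward the 5′ end of the clusters. The median log2 fold change was 1.44 in group 2, 2.06 in group 3, 1.37 in group 4 and 1.73 in group 5. It was 2.58 in group 6, 3.65 in group 7 and 4.01 in group 8. In group 9 it was 4.72 (SE 0.35) for *Hoxb9* and 5.58 (SE 0.33) for *Hoxd9*, with adjusted p = 7.58e-05 and 4.05e-05 by the edgeR quasi-likelihood F test after Benjamini-Hochberg adjustment. Against a floor of 3 counts in each intestinal library, the control skin mean was at least 477-fold higher for *Hoxc13* and 310-fold for *Hoxa9*. It was at least 118-fold higher for *Hoxc10*, 108-fold for *Hoxa10*, 84.2-fold for *Hoxc9* and 27.8-fold for *Hoxd10*. These 6 members entered the test through skin alone and share the same floor. Their bounds therefore follow the skin level and cannot show an order along the clusters. The control skin libraries ranged 6.91-fold for *Hoxc13*. The 3′ members of HoxD departed from the rise toward the 5′ end. Their log2 fold changes, 4.0 (SE 0.38) for *Hoxd3* and 3.39 (SE 0.28) for *Hoxd4*, were above those of the other members of groups 3 and 4. The annotated spans of *Hoxd3* and *Hoxd4* overlap, so their counts are uncertain. *Hoxd3* had only 6, 17 and 11 counts in the control intestinal libraries. HoxD made up 15.6% to 19.0% of the summed Hox level in control skin and 6.59% to 7.11% in control intestine.

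**Figure D3:**
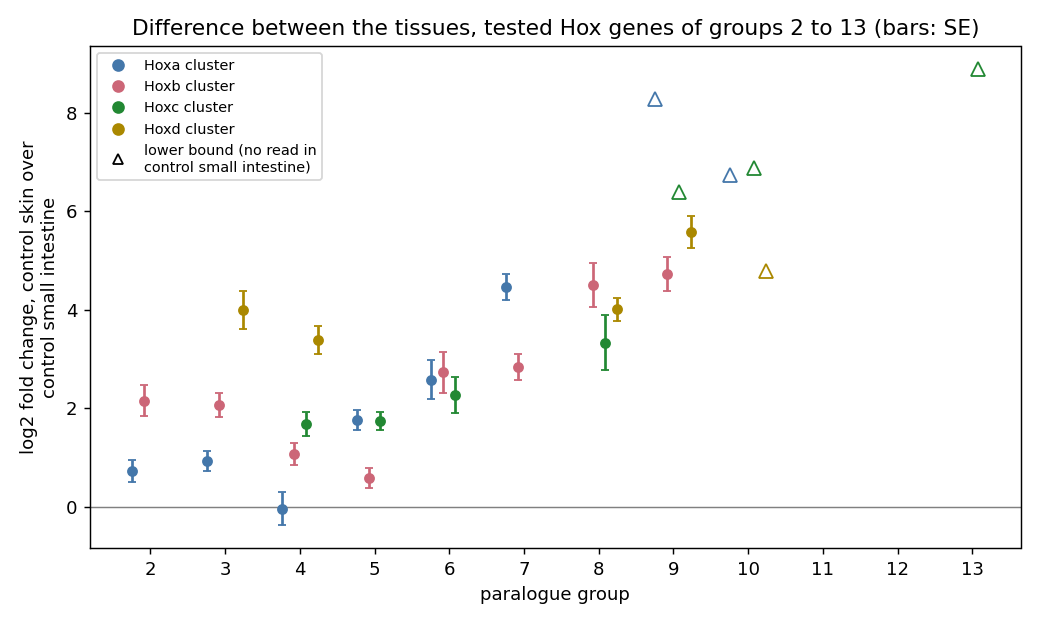
Log2 fold change of the counts, control skin over control small intestine (n = 3 each), for the 28 tested Hox genes of paralogue groups 2 to 13; bars are standard errors and open triangles are lower bounds for genes with no read in control intestine. Values lie between -0.04 and 4.0 in groups 2 to 5 and between 4.72 and 5.58 for the group 9 genes with reads.

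With IMQ in both tissues, 24 of 29 tested members were higher in skin, against 28.9% of all genes, and none was lower. The same 6 members entered this test through skin alone, with no intestinal read with IMQ except 6 counts of *Hoxc9*, and all 6 were called, as their selection fixes. Of the 23 members with reads in every intestinal library, 18 were called. All 24 were among the 28 of the control comparison, and *Hoxa2*, *Hoxa3*, *Hoxb4* and *Hoxb5* were called between the control tissues only. The libraries of one tissue resembled each other across treatments. Over the 39 members, Pearson correlations of log2(FPKM + 0.01) were 0.94 to 0.99 between skin libraries, 0.97 to 0.99 between intestinal libraries and 0.64 to 0.74 between a skin and an intestinal library. These correlations are across genes, which share libraries and zeros, and are given as a description.

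In skin, 4 of 29 tested Hox genes were lower with IMQ and 1 was higher, whereas 2.69% of all genes tested were called lower and 4.05% higher. *Hoxa3*, *Hoxb3*, *Hoxb5* and *Hoxc13* were lower, and *Hoxd10* was higher. Most other members leaned the same way without passing the test: 26 of 29 members had a negative log2 fold change, with a median of -0.47 against -0.01 over all genes, and 16 had an unadjusted p under 0.05, as did 23.2% of all genes. In 14 members every IMQ library lay below every control library in counts scaled to the library total, a separation seen in that direction in 15% of all genes tested. In 3 members, among them *Hoxd9* and *Hoxd10*, every IMQ library lay above, against 12.6% of all genes.

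The homeoboxes of *Hoxc13* and *Hoxd10*, a lower and the higher member, are shown to compare what they bind with, beside that of *Hoxc8*, whose level varied most among the intestinal libraries. Each is the 180-base homeobox read 5′ to 3′ on the coding strand from the GENCODE M21 annotation of GRCm38, and capitals mark the codons of the conserved recognition-helix motif of 6 residues, which all 39 members encode. Each lies in the last exon, exon 2 of 2.
Hoxc13, chr15:102927210-102927389, plus strand: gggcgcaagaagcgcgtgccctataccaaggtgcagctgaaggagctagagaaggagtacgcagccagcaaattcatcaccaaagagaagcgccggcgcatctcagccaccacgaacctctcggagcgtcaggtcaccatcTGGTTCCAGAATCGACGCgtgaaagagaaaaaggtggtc
Hoxd10, chr2:74694141-74694320, plus strand: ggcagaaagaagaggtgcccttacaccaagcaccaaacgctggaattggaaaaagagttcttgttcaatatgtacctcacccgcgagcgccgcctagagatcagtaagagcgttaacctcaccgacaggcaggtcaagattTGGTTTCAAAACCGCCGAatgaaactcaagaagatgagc
Hoxc8, chr15:102992571-102992750, plus strand: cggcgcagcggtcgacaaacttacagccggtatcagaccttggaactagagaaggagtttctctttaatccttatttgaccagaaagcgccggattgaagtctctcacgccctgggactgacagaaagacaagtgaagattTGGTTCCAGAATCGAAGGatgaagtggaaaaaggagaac

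*Hoxc13* and *Hoxd10* encode homeodomains identical at 35 of 60 residues (58.3%), and their homeoboxes share 103 of 180 bases. *Hoxc8* shared 40 of 60 residues with *Hoxd10* and 27 with *Hoxc13*. Within a paralogue group the identity of the homeodomains was 78.3% to 100%, with a median of 93.3% over 42 pairs, and between groups it was 40.0% to 93.3%, with a median of 61.7% over 699 pairs. How the authors' counting treated reads that match several members is not given in the sources used here.

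*Hoxb3* and *Hoxb5*, 3′ members of HoxB, fell by more than any called member except *Hoxc13*. *Hoxb3* had 6.16, 3.74 and 7.15 FPKM in control skin and 2.73, 1.86 and 2.50 FPKM with IMQ. All IMQ libraries lay below all controls, and the log2 fold change of the counts was -1.16 with an SE of 0.25 (adjusted p = 0.0425, edgeR quasi-likelihood F test, Benjamini-Hochberg). *Hoxb5* had 3.05, 1.99 and 3.0 FPKM in control skin and 1.26, 1.34 and 1.27 FPKM with IMQ. The IMQ libraries were close together at the level of control intestine, below every control skin library, and the log2 fold change was -1.0 with an SE of 0.22 (adjusted p = 0.0427 by the same edgeR test). All 8 tested HoxB members had negative values, with a median of -0.91, whereas the medians were -0.43 in HoxA, -0.50 in HoxC and -0.23 in HoxD. *Hoxb6* (-1.02, SE 0.24) and *Hoxb8* (-1.21, SE 0.39) were as low as the called members on the log2 scale but had adjusted p = 0.0534 and 0.124 by the edgeR test. Without control replicate 2 both were called, at -1.24 (SE 0.13) and -1.53 (SE 0.25).

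*Hoxa3*, which acts in the pharyngeal region of the embryo, had 2.83, 3.11 and 2.42 FPKM in control skin and 1.97, 1.88 and 1.54 FPKM with IMQ. The groups did not overlap, and the log2 fold change was -0.77 with an SE of 0.17 (adjusted p = 0.0460, edgeR quasi-likelihood F test, Benjamini-Hochberg). Counts and FPKM of *Hoxa3* did not order the controls alike, since control replicate 2 had the fewest counts (450, against 740 and 641) and the highest FPKM. The transcript length implied by counts and FPKM varied 2.03-fold between libraries for *Hoxa3*, 2.43-fold for *Hoxc6* and 1.74-fold for *Hoxc4*, and less than 1.5-fold for the other 26 members with enough counts. The annotated span of *Hoxa3* covers *Hoxa4*, *Hoxa5* and *Hoxa6*, and *Hoxb3* overlaps *Hoxb4*, so counts within these groups are uncertain.

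*Hoxc13* changed most and was also the least even among controls. It had 9.97, 2.63 and 18.1 FPKM in control skin and 1.5, 1.14 and 1.16 FPKM with IMQ. Every IMQ library was lower than every control, but control replicate 2 lay nearer to the IMQ libraries than to the other controls. The log2 fold change was -2.92 with an SE of 0.62 (adjusted p = 0.0410, edgeR quasi-likelihood F test, Benjamini-Hochberg). Hair follicle markers moved over the same libraries. *Krt71*, a keratin of the inner root sheath, had 182, 0.160 and 331 FPKM in control skin and 0.0750 to 0.191 FPKM with IMQ, and *Lhx2*, a factor of hair progenitors, had 34.6, 9.97 and 41.9 FPKM and then 2.15 to 3.03 FPKM. Of 6 tested markers of the list of 7, 3 were called lower (*Lhx2*, *Sox9* and *Shh*) and all 6 had negative values. Without control replicate 2 all 6 were called lower. The part of hair follicle content in the fall of *Hoxc13* and of the other members was not tested. *Hoxc10*, its nearest neighbor in HoxC with appreciable level, was likewise highest in control replicates 3 and 1.

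*Hoxd10* was the 1 member that rose. It had 0.743, 0.730 and 0.865 FPKM in control skin and 1.65, 1.68 and 1.89 FPKM with IMQ. Both conditions were even, without overlap and without the low value of control replicate 2 seen for *Hoxc13*. The log2 fold change was 1.26 with an SE of 0.20, or 2.40-fold (adjusted p = 0.0172, edgeR quasi-likelihood F test, Benjamini-Hochberg). Its HoxD neighbor *Hoxd9* had a log2 fold change of 0.50 (SE 0.17) and did not pass the threshold (adjusted p = 0.140 by the edgeR test). *Hoxd10* overlaps *Hoxd11* in the annotation, but *Hoxd11* had at most 10 reads in a library.

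**Figure D4:**
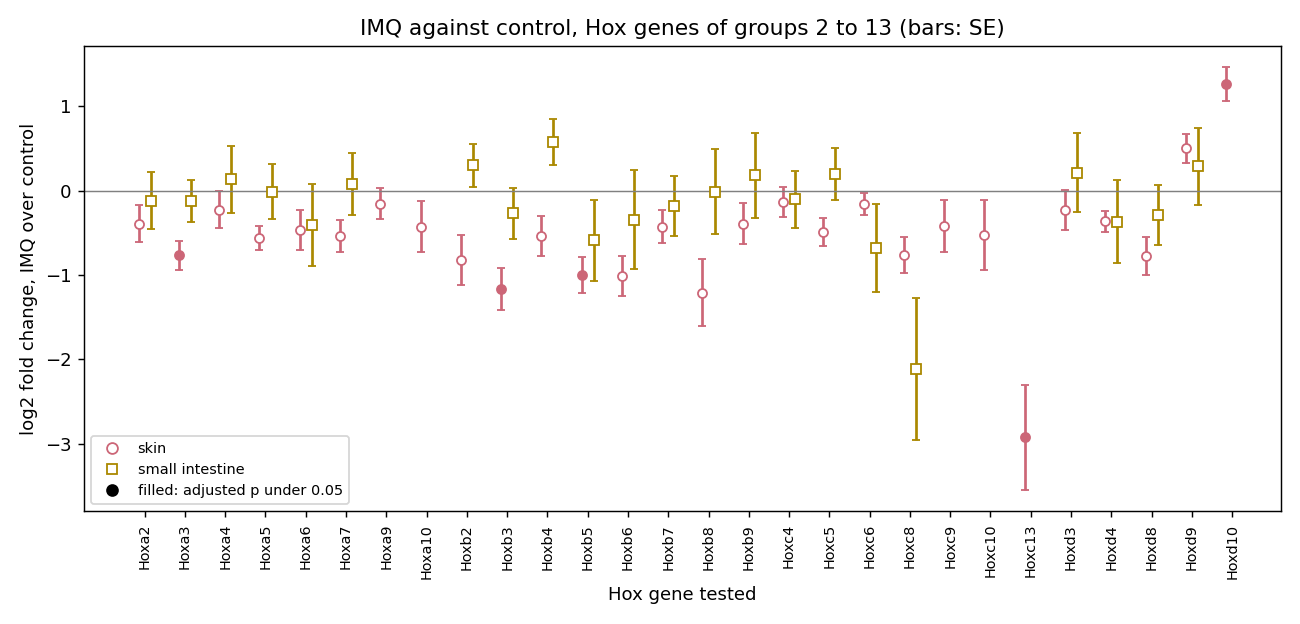
Log2 fold change of the counts, IMQ over control, with its standard error, for the Hox genes of paralogue groups 2 to 13, 28 tested in skin (circles) and 22 in small intestine (squares); filled symbols have an adjusted p under 0.05. Most skin values lie below 0 (26 of 28), intestinal values lie on both sides of 0 (8 above, 14 below), and only skin has filled symbols.

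The calls in skin lay close to the threshold and depended on single libraries. Without control replicate 2, 9 members were called lower (the 4 above with *Hoxa5*, *Hoxb2*, *Hoxb6*, *Hoxb8* and *Hoxd8*) and *Hoxd10* higher, against 12.1% of all genes in either direction. Without control replicate 1, IMQ replicate 4 or IMQ replicate 5 no member was called. The direction of all 5 called members was the same without each library, with log2 fold changes of 1.21 to 1.31 for *Hoxd10*, -3.37 to -2.26 for *Hoxc13*, -1.38 to -1.01 for *Hoxb3*, -1.14 to -0.92 for *Hoxb5* and -0.87 to -0.65 for *Hoxa3*.

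**Figure D5:**
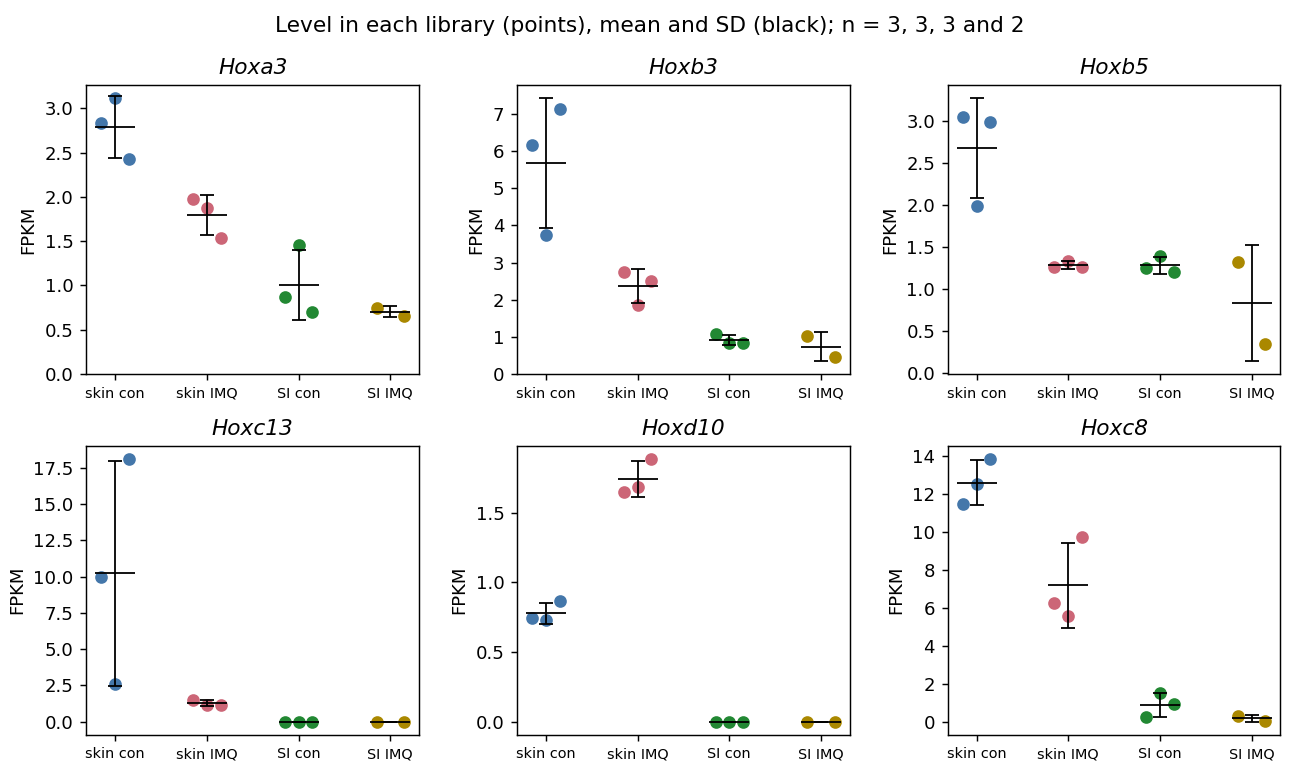
FPKM of the 5 Hox genes called in skin and of Hoxc8 in each library (points) of the 4 conditions, with the mean and SD. IMQ-treated skin lies below control skin for Hoxa3, Hoxb3, Hoxb5 and Hoxc13 and above it for Hoxd10; Hoxc13 and Hoxd10 have no read in the small intestine (SI), and Hoxc8 ranges there from 0.0630 to 1.5 FPKM.

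In the small intestine, no Hox gene passed the test with IMQ. By the edgeR quasi-likelihood F test none of 23 tested members was called, with 1 at an unadjusted p under 0.05 (12.3% of all genes), and none by DESeq2 or limma, whereas 2.95% of all genes tested were called. The median log2 fold change was -0.11, against -0.02 over all genes. In counts scaled to the library total, no member had its IMQ libraries all above or all below the controls, separations that 13.1% and 15.9% of all genes tested showed. On the FPKM scale *Hoxb2* alone had both IMQ libraries above all controls, against 12.8% of all genes. The SE of the members was 0.25 to 0.85 on the log2 scale with 2 IMQ libraries, so a difference of the size of the median in skin was not detectable here.

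*Hoxc8* had the lowest p among the intestinal members and the widest spread. It had 0.230, 1.5 and 0.962 FPKM (30, 189 and 149 counts) in control intestine and 0.327 and 0.0630 FPKM (49 and 9 counts) with IMQ. Control replicate 7 lay within the IMQ range, and the log2 fold change was -2.11 with an SE of 0.85 (adjusted p = 0.365, edgeR quasi-likelihood F test, Benjamini-Hochberg). Its highest library exceeded its lowest 21.4-fold in counts scaled to the library total, against a median of 2.27-fold over the 23 members. Genes that differ along the intestine also differed among these libraries. *Osr2* had 27.1, 42.7 and 28.3 FPKM in controls and 16.6 and 6.49 FPKM with IMQ. *Pdx1*, a factor of the duodenum, had 0.609, 0.198 and 0.383 FPKM and then 0.545 and 2.65 FPKM. Over the lists, all 6 tested genes of the distal intestine were lower in IMQ replicate 11 than in control replicate 8, the libraries with the lowest and the highest *Hoxc8*. The 8 tested genes of the proximal intestine were divided, with 5 higher and 3 lower in replicate 11 (*Cybrd1*, *Lct* and *Slc40a1*). Replicate 11 was also low in smooth muscle genes, with *Myh11* at 20.1 FPKM against 33.9 to 76.0 FPKM in the others. None of the 6 distal and 8 proximal genes tested was called with IMQ by the edgeR test, with 3 of each at an unadjusted p under 0.05, and the part of gut position or muscle content in *Hoxc8* was not tested.

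The IMQ responses of skin and intestine were set against each other by an interaction term, which was called for none of the 23 members with reads in every intestinal library, against 1.61% of all genes tested. By the edgeR quasi-likelihood F test 5 of the 23 had an unadjusted p under 0.05, as did 15.6% of all genes. DESeq2 called *Hoxb4* among them, and without control skin replicate 2 the edgeR test called *Hoxb2*. *Hoxb4* came nearest, with a log2 fold change of -0.54 (SE 0.24) in skin and 0.57 (SE 0.27) in the intestine, and a difference of -1.11 (SE 0.34, adjusted p = 0.154, edgeR quasi-likelihood F test, Benjamini-Hochberg). The other 6 tested members, *Hoxc13* and *Hoxd10* among them, had no read in most or all intestinal libraries and thus no intestinal response to compare.

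Among 41 tested partners and regulators of Hox genes and proteins, *Cbx2* and *Aldh1a2* passed the test with IMQ in skin, both lower, a share of 4.88% against 6.74% of all genes. The TALE proteins of the Pbx, Meis and Pknox families bind DNA together with Hox proteins. None of their 9 genes was called with IMQ in either tissue by the edgeR quasi-likelihood F test, with 2 in skin and 0 in the intestine at an unadjusted p under 0.05, and their median log2 fold change was -0.23 in skin and 0.12 in the intestine. Between control tissues *Meis1* (log2 fold change 0.97, SE 0.22) and *Pknox2* (1.98, SE 0.22) were higher in skin. Of 21 Polycomb and Trithorax group genes, which keep Hox genes silent or active, *Cbx2* was lower in IMQ-treated skin (4.33, 3.98 and 3.78 FPKM) than in control skin (12.1, 7.16 and 10.1 FPKM), with a log2 fold change of -1.19 and an SE of 0.17 (adjusted p = 0.0122, edgeR quasi-likelihood F test, Benjamini-Hochberg), and the other 20 were not called. None of the 21 was called in the intestine by the edgeR test, with 2 at an unadjusted p under 0.05. *Cdx1* and *Cdx2*, which activate Hox genes in the posterior embryo and specify intestinal epithelium, had 33.0 to 66.2 FPKM in the intestine. In skin they had no read in controls 1 and 3, and 0.463 and 0.434 FPKM in control replicate 2, the library with intestinal transcripts, and *Cdx2* had 0.0174 FPKM in IMQ replicate 5. *Aldh1a2*, which makes retinoic acid, was lower in IMQ-treated skin (0.0512 to 0.0642 FPKM) than in control skin (0.141 to 0.545 FPKM), the 1 call among 11 tested genes of the Cdx and retinoid list. It rests on few reads, with 72, 17 and 50 counts in control skin and 8, 8 and 6 with IMQ. *Aldh1a1* (mean 11.2 FPKM in control skin and 10.9 FPKM with IMQ) and *Aldh1a3* (4.0 and 7.0 FPKM) were not called. *Cbx2* and *Aldh1a2* were also called without control skin replicate 2. In that fit 1 of 9 TALE genes (*Pknox1*), 4 of 21 Polycomb and Trithorax genes and 2 of 12 genes of the Cdx and retinoid list were lower and none was higher, against 12.1% of all genes called in either direction.

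Of the noncoding genes of the clusters, *Mir196a-1*, upstream of *Hoxb9*, had 6.91, 4.81 and 7.57 FPKM in control skin and 6.75, 3.65 and 3.03 FPKM with IMQ. It had no read in 5 intestinal libraries, but its skin level rests on only 18 to 47 counts in a library. *Mir615*, within *Hoxc5*, was also read in skin alone, at 3 or 4 counts, whereas *Hoxb9* had 11 to 35 counts in the intestinal libraries. The lack of intestinal reads can therefore not be tied to a 5′ position. Poly(A) libraries read the precursor transcript of *Mir196a-1* and not the mature miRNA. Its mature sequence, and that of *Mir10a* from between *Hoxb4* and *Hoxb5*, are shown from RefSeq on GRCm38.p6 with the seed (bases 2 to 8) in capitals, because both families target Hox transcripts.
mmu-miR-196a-5p, chr11:96265187-96265208: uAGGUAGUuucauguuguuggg
mmu-miR-10a-5p, chr11:96317186-96317208: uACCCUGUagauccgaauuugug

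*Hotairm1* of HoxA had 5.52 to 7.09 FPKM in control skin and 1.63 to 2.41 FPKM in control intestine, and *Hotair* of HoxC and *Hottip* of HoxA, which lie at the 5′ parts of their clusters, had no read in any library. None of 5 noncoding genes tested in skin and 3 tested in the intestine was called with IMQ by the edgeR test, with 0 at an unadjusted p under 0.05 in either tissue. Of the 5 tested in skin, 2 had a positive log2 fold change. *Hoxb5os* of HoxB was not tested in skin, because IMQ replicate 5 had no read of it. It had 51, 18 and 76 counts in control skin and 5, 0 and 6 counts with IMQ. Of 10 tested genes that flank the clusters, 2 were higher and 1 was lower in control skin than in control intestine. Their median log2 fold change was -0.03, and 58.1% of all genes tested were called in either direction. With IMQ none of 11 was called in skin and none of 10 in the intestine by the edgeR test, with 2 at an unadjusted p under 0.05 in each tissue. Without control skin replicate 2, 1 was higher and 1 lower in skin.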

How the data were processed

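Skin and small intestine RNA was sequenced by the authors as 100-bp paired-end reads from poly(A)-selected, stranded libraries. Per the labels, reads were trimmed with Trimmomatic, aligned to mm10 with HISAT2 2.1.0 and quantified with StringTie 2.1.3b. The authors deposited 1 table with whole-number read counts without normalization, the FPKM of each gene and the TPM of each gene. The handling of strand and of reads that match several genes is not given in the sources used here.

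Groups came from the labels. IMQ and control libraries were compared in each tissue with edgeR 4.0.16 (R 4.3.3), using the quasi-likelihood test on the counts with relative log expression normalization, genes with 1 or more reads in each of that tissue's libraries, and Benjamini-Hochberg adjustment over all genes tested, with calls at an adjusted p under 0.05. Tissues and the interaction were compared with the same test on genes kept by filterByExpr. The SE is the size of the log2 fold change divided by the square root of F. FPKM was used for levels, described without a test. The edgeR fits were tested on simulated data. Alternatives were TMM, DESeq2 1.42.0, limma 3.58.1 on log2(FPKM + 0.01) and log2(FPKM + 1), no filter, the other filter, 1 fit of all 11 libraries, TPM, a threshold of 0.1 FPKM and leaving out each library. All 39 members were matched to RefSeq by Entrez Gene identifier for positions. Per-library values were printed for the 5 highest members of each tissue, members called with IMQ, the largest tissue differences and groups 9 to 13 at 1 FPKM or more. Members and gene lists were chosen with earlier results of these data known. Intervals and floors cover counting error only. Some genes and sequences are not reported here, and the figures show paralogue groups 2 to 13.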

Additional observations from a re-analysis of the deposited data

How the results depend on the processing

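The number of Hox genes called between IMQ-treated and control skin, 5 as reported, was the least stable value. It was 13 by DESeq2 (2 higher, 11 lower), 1 by limma with either pseudocount on the FPKM, 1 without a filter, and between 0 and 10 when 1 library was left out. It was 0 without control replicate 1, IMQ replicate 4 or IMQ replicate 5, 1 without control replicate 3 (*Hoxd10*) or IMQ replicate 6 (*Hoxc8*), and 10 without control replicate 2. *Hoxd10* was called in all 7 alternatives that kept all libraries. The interaction, with 0 calls as reported, had 2 by DESeq2 (*Hoxb4* and *Hoxc9*), 1 by limma on log2(FPKM + 1) (*Hoxd10*, which like *Hoxc9* lacked reads in most or all intestinal libraries), and 0 to 1 when 1 library was left out (*Hoxb2* without control skin replicate 2). The intestinal count of 0 held under every alternative. The tissue counts were 21 to 28 in controls and 18 to 26 with IMQ, the lowest being those limited to genes with reads in every library. *Hoxa4* changed sign between the control tissues without being called in any setting, at a log2 fold change of 0.0765 with TMM, 0.49 and 0.21 by limma with pseudocounts of 0.01 and 1, and -0.33 to 0.15 when 1 library was left out (0.03 without control skin replicate 2, 0.15 without control intestine replicate 7 and 0.06 without replicate 8). Members with a mean of at least 1 FPKM numbered 6 in control intestine and 3 with IMQ, against 15 and 14 at 1 TPM, 20 and 21 at 0.1 FPKM, and 3 to 8 in the IMQ group when 1 library was left out (8 without replicate 11). The ratio of the summed level was 9.24 for control skin over control intestine (8.25 to 10.8 without single libraries), 0.627 for IMQ over control skin (0.560 to 0.702) and 0.883 for IMQ over control intestine (0.613 to 1.15). The causes were not tested. Depth limits the intestinal values of groups 8 and 9 and of *Hoxd3*. Single libraries held as few as 5 counts of *Hoxd9*, 9 of *Hoxc8* and 6 of *Hoxd3*.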

Other observations

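Other genes that carry body position were read in the same libraries. Of 10 tested limb, trunk and head genes, 8 were higher in control skin than in control intestine and 2 were lower. Over all genes tested, 29.2% were called higher and 28.8% lower. *Tbx15*, a factor of dorsal trunk dermis, had 18.7, 18.7 and 26.5 FPKM in control skin and at most 0.0156 FPKM in the intestine. *En1*, a factor of ventral limb skin and of part of the dermis, had 1.89, 1.21 and 3.59 FPKM in control skin and no read in the intestine. *Tbx5*, of the forelimb, reached at most 0.0296 FPKM in a skin library. Of 10 tested gut position genes 8 were lower in control skin and 1 was higher. *Foxf1* of gut mesenchyme had 6.77 to 7.88 FPKM in control intestine and 0.0402 to 0.155 FPKM in control skin.

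*Pitx1*, a factor of hindlimb identity that is also expressed in the gut, was the 1 gene of the limb, trunk and head list that rose with IMQ in skin. It had 0.385, 0.467 and 0.447 FPKM in control skin and 3.52, 2.66 and 1.83 FPKM with IMQ, a log2 fold change of 2.67 with an SE of 0.32 (adjusted p = 0.00733, edgeR quasi-likelihood F test, Benjamini-Hochberg), and the difference from the intestinal response was called as well, at 3.14 (SE 0.39, adjusted p = 0.00582 by the same edgeR test). *Alx4* (log2 fold change -3.66, SE 0.73) and *Lmx1b* (-2.70, SE 0.62) fell. Their levels were low in control replicate 2 as well, at 1.34 FPKM for *Alx4* against 6.81 and 8.17 FPKM in the other controls, the library in which hair follicle markers were low, and the part of hair follicle content was not tested. Without that library *Pitx1*, *Alx4* and *Lmx1b* were called in the same directions, at 2.77 (SE 0.37), -4.11 (SE 0.45) and -3.13 (SE 0.31).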
